A study of Mus musculus with 6 samples.

Results

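The 41 genes described here are host genes that mark fibroblasts, or subsets of them, and genes of the extracellular matrix that fibroblasts lay down. They were taken by gene name from the mouse count table of tumours grown in mice, where each name matched 1 row of 55536 named rows. Of the 41 genes, 40 had enough counts to be tested, among 14459 tested mouse genes, and Tcf21 did not. The tumours grew from DU145, a human prostate cancer cell line, injected under the skin of male nude mice, a strain that lacks a thymus and so lacks most T cells. The Zelnorm group (3 tumours, libraries MBZ_254, MBZ_257 and MBZ_259) came from mice given Zelnorm by mouth each day, and the control group (3 tumours, libraries NC10, NC4 and NC9) is labelled control. Once a tumour was palpable, its mouse was assigned to a group by randomisation. Zelnorm is the trade name of tegaserod, a serotonin receptor agonist. The titles of its samples carry MBZ instead, which the labels do not explain, and dose and mouse age are not given in the sources used here. Nothing in the labels ties a library to a named animal, so p-values measure the spread between these 6 samples.

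Fibroblasts are the main makers of connective tissue matrix. In mouse tissues, a population around vessels and between organs, called adventitial or universal fibroblasts, carries Pi16 and Dpp4, while fibroblasts of tumours and scars take on an activated state with Fap, Postn and Cthrc1. A subcutaneous tumour grows into a layer of loose connective tissue, fat and thin skin muscle, and the host RNA of a whole tumour can hold all of these.

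The mouse table held 5798742 to 9016779 counts per Zelnorm library and 6135439 to 9185279 per control library. Mouse counts were 23.4%, 15.1% and 19.7% of both tables in the Zelnorm libraries and 19.3%, 22.3% and 19.0% in the control libraries. Levels are CPM, the count of a gene relative to the library total scaled by edgeR's TMM factors. Each fold change is the log2 ratio of Zelnorm to control from edgeR's quasi-likelihood test over all tested mouse genes, with a standard error (SE). Collagen and other fibroblast-associated genes outside the 41 were set beside them. Of 10 tested, 8 were below 0 and 2 above (median log2 fold change -0.16, 0 called), where 46.1% of all tested genes lay below 0. Col1a1, a chain of type I collagen, stood at 9314, 4278 and 8817 CPM in the Zelnorm libraries, against 7835, 11496 and 7450.4 CPM in the control libraries. S100a4, with the smallest unadjusted p of the 10 in edgeR, went the other way. It was at 43.7, 57.7 and 58.6 CPM in Zelnorm libraries, against 46, 43.2 and 41.7 CPM in controls (0.29, SE 0.16). In bulk RNA, fewer fibroblasts and less RNA per fibroblast cannot be told apart.

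As a group the 41 genes took 1.58% ± 0.592 of the mouse counts in Zelnorm tumours and 2.01% ± 0.401 in control tumours (SD, n = 3 each). Sparc and Fn1 had the most counts of the set, with means of 36996 and 30906 over the 6 libraries, beside 182 for Dpp4. The share therefore rests largely on Sparc and Fn1. By library the share was 1.96% in MBZ_254, 0.899% in MBZ_257 and 1.89% in MBZ_259, with Wilson 95% intervals of 1.947% to 1.967%, 0.8918% to 0.9072% and 1.881% to 1.898%. Among controls it was 1.74% in NC10, 2.47% in NC4 and 1.82% in NC9, with intervals of 1.73% to 1.751%, 2.463% to 2.485% and 1.815% to 1.832%. The Zelnorm tumour MBZ_257 was low and the control NC4 was high, and the other 4 tumours lay close together. MBZ_257 had the lowest level of the 6 libraries for 37 of the 40 tested genes, where it was lowest for 29.4% of all tested mouse genes. NC4 had the highest level for 24 of the 40, where it was highest for 18.3% of all tested genes.

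**Figure D1:**
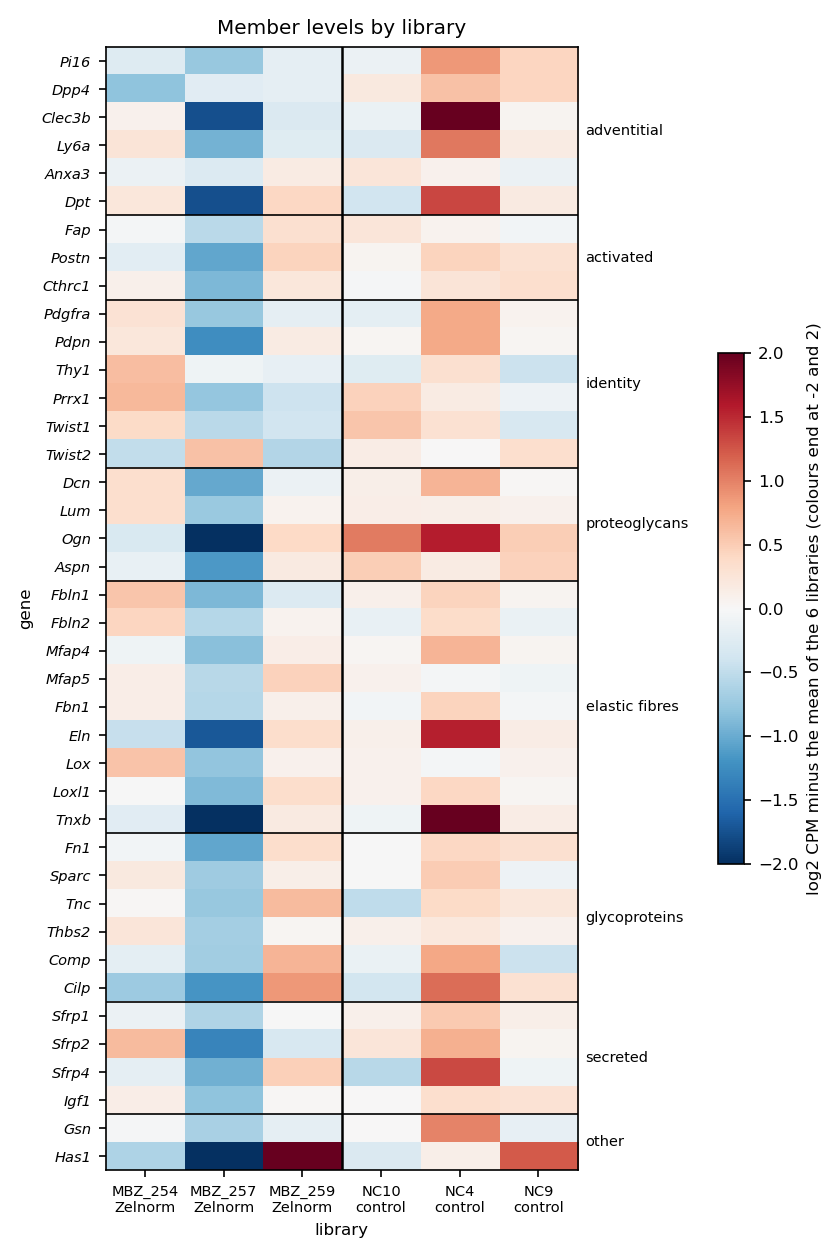
Level of each of the 40 tested genes in the 6 libraries, as log2 CPM centred on the mean of that gene, with Zelnorm libraries left of the line and genes grouped by role. MBZ_257 was lowest for 37 genes and NC4 highest for 24.

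None of the 40 genes passed edgeR's quasi-likelihood test after Benjamini-Hochberg adjustment over all tested mouse genes (smallest adjusted p = 1, with 0% of all tested genes called by edgeR). Of the 40, 2 (Dpp4 and Pi16, both lower in Zelnorm) had an unadjusted p under 0.05 in that edgeR fit, against 1.75% of all tested genes in either direction and 1.03% lower. DESeq2 called 0 of the 40 and 6 of all tested genes (0.0415%), with 5 of the 40 at an unadjusted p under 0.05, against 1.85% of all tested genes. Limma-voom called 0 of the 40 and 0% of all tested genes, with 5 of the 40 at that level, against 1.78%. With sample quality weights, added after seeing the data, limma-voom called 0 of the 40 and 1 of all tested genes (0.00692%), with 2 of the 40 at that level, against 7.18%. The fitted fold change was below 0 for 36 of the 40 genes and above 0 for 4, where 46.1% of all tested genes lay below 0. Their median log2 fold change was -0.39, beside 0.0188 over all tested genes. That median was -0.11 without MBZ_257, with 14 of 40 genes above 0, and -0.18 without NC4, with 7 above 0. With both left out, a choice made after seeing the data, it was 0.07, with 25 above 0. MBZ_257 was lowest for 37 of the 40 genes and NC4 highest for 24, so leaving them out raises most fold changes by construction. These values show how far the median rests on these libraries, not whether the groups differ. The weighted limma-voom fit, with its lowest weights of 0.446 on MBZ_254, 0.445 on MBZ_257 and 0.624 on NC4, had a median of -0.13, with 12 above 0.

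The spread within a group was wider than the step between groups for most of the genes. The highest Zelnorm library was a median of 2.33 times the lowest, the highest control library 1.54 times the lowest, and the larger group mean 1.31 times the smaller. In 37 of the 40 genes the range within Zelnorm exceeded the fold between the means, and in 32 the range within control did. A range over single libraries and a fold between means are unlike measures. The first can exceed the second for genes at large, and the share over all tested genes was not computed. The coefficient of variation was larger among Zelnorm than among control libraries for 32 of the 40 genes, where this held for 66% of all tested genes.

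Pi16, Dpp4, Ogn and Sfrp1, 4 of the 40 genes, had every Zelnorm library below every control library. Of all tested genes 3% did so, and 2.52% had every Zelnorm library above every control library, as did 0 of the 40. Without MBZ_257, without NC4 and without both, 5, 5 and 6 of the 40 lay lower in that way. Of all tested genes 5.82%, 6.93% and 14.9% did so. These 4 genes were among them each time. Apart from rescaling, groups that do not overlap stay apart when libraries are left out, so this could not have come out otherwise. Above every control in those settings lay 2, 1 and 8 of the 40, against 8.16%, 5.26% and 16.7% of all tested genes.

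For Pi16, Dpp4 and Ogn the RefSeq table (GRCm38.p6) held a promoter, and the 250 bases before the start it lists are shown because these genes were among the 4 whose groups did not overlap. RefSeq promoters matched 24 of the 41 genes. Capitals mark E-boxes (CANNTG), the element bound by the Twist factors that are also among the 41 genes. The windows lie at chr17:29318632-29318881 on the plus strand (Pi16), chr2:62412232-62412481 on the minus strand (Dpp4) and chr13:49607765-49608014 on the plus strand (Ogn). The Pi16 window lies inside the GENCODE span of the gene given with its values, so it precedes the start listed by RefSeq and not the first base of that span. The Ogn window ends at 49608014, before the GENCODE start at 49608046. The stretch of bases after the RefSeq start was held by 0 GENCODE transcripts of Ogn, so the listed starts differ there too.
Pi16: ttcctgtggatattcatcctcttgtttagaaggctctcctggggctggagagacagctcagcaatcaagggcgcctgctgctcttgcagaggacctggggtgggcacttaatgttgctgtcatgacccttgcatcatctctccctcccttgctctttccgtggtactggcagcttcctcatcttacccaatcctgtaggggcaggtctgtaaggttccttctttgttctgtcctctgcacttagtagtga
Dpp4: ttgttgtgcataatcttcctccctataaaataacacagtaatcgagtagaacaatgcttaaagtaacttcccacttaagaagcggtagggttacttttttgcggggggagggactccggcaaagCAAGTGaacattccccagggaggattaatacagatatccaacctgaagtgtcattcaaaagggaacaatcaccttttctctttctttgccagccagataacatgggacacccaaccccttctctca
Ogn: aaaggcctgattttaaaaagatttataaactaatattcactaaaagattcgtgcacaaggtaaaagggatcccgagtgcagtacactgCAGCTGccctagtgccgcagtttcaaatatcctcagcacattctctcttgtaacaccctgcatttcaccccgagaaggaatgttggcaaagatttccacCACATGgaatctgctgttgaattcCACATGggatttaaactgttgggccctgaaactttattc
The Ogn window held 3 E-boxes, the Dpp4 window 1 and the Pi16 window 0, and 66.2% of 32851 RefSeq promoter windows of this length held at least 1. TATAAA, the TATA box, was searched on both strands. Dpp4 had 1 match and Ogn 2, which overlap each other on opposite strands, while Pi16 had 0 and 12.4% of all windows held one. GGAATG, the core of the TEAD motif, matched 1 time each in Dpp4 and Ogn and 0 times in Pi16, and in 12.6% of all windows. TGANTCA, the AP-1 motif, matched none of these 3 windows and 6.7% of all windows. These matches describe letters only.

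Pi16, a peptidase inhibitor-like protein and the leading marker of adventitial fibroblasts (ENSMUSG00000024011, chromosome 17 from 29317680 to 29330593 in GRCm38), was at 92.1, 65.5 and 97.5 CPM in MBZ_254, MBZ_257 and MBZ_259, against 102, 202 and 149 CPM in NC10, NC4 and NC9. All 3 Zelnorm tumours lay below all 3 controls, but the gap between the highest Zelnorm tumour and the lowest control was small. The means were 85 ± 17.1 CPM in Zelnorm and 151 ± 50.1 CPM in control tumours (SD, n = 3 each), a log2 fold change of -0.83 (SE 0.27, edgeR adjusted p = 1). It was -0.57 without NC4 and -0.39 without both NC4 and MBZ_257.

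Dpp4, a cell-surface peptidase also called CD26 (ENSMUSG00000035000, chromosome 2 from 62330073 to 62412231), was at 13.1, 19.4 and 20.0 CPM in the Zelnorm tumours, against 26, 34.1 and 30.7 CPM in the controls. Its lowest library was MBZ_254, not MBZ_257, and the groups lay clearly apart. The means were 17.5 ± 3.84 CPM in Zelnorm and 30.3 ± 4.08 CPM in control tumours, a log2 fold change of -0.79 (SE 0.21, edgeR adjusted p = 1). It ran from -0.91 to -0.63 with 1 library left out and was -0.76 without both MBZ_257 and NC4.

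Dpp4 differs from Pi16 in how much of its signal the human table also holds. The human table held 194, 427 and 332 DPP4 counts in the Zelnorm libraries, against 320, 309 and 652 in the controls. The mouse table held 103, 105 and 175 Dpp4 counts in the Zelnorm libraries, against 162, 263 and 283 in the controls. PI16 had at most 2 counts in any human library. Human DPP4 was at 10.1 ± 2.76 CPM of the human table in Zelnorm and 13.5 ± 2.5 CPM in control tumours, a log2 fold change of -0.42 (SE 0.22, edgeR adjusted p = 1), and its lowest library was also MBZ_254. How reads were divided between the species was not given in the sources used here, and the part of this in the mouse value of Dpp4 was not tested.

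**Figure D2:**
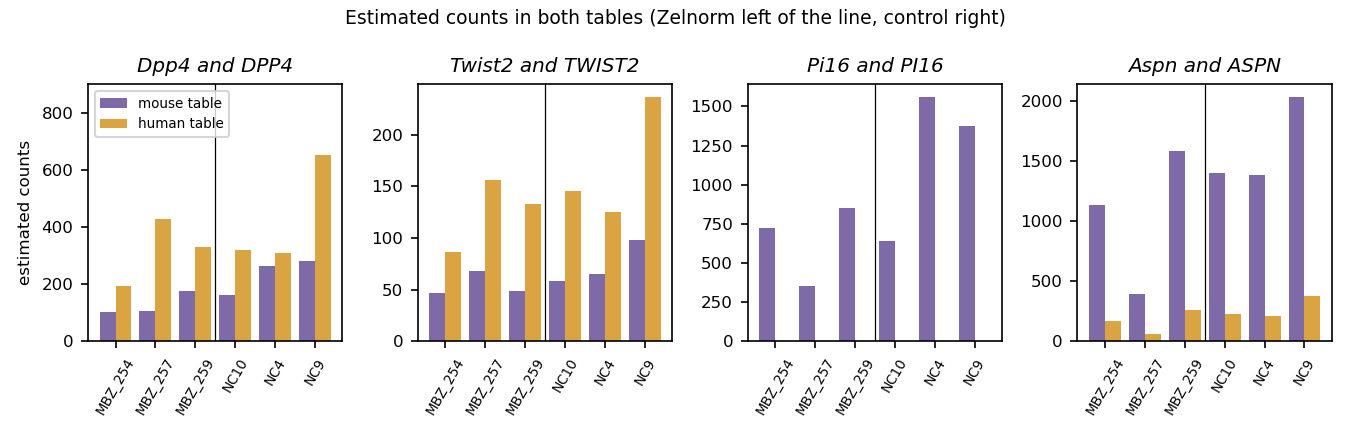
Estimated counts of 4 genes in the mouse table and of the human gene of the same symbol in the human table, by library, with Zelnorm left of the line and control right. Dpp4 and Twist2 had fewer mouse than human counts in each library, Pi16 had at most 2 human counts, and Aspn had 14.6% to 18.5% as many human as mouse counts.

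The activated markers showed no such separation. Fap, fibroblast activation protein, a protease related to Dpp4 (ENSMUSG00000000392, chromosome 2 from 62500943 to 62574075), was at 44.2, 31.5 and 57 CPM in Zelnorm tumours, against 53.9, 48.1 and 43.8 CPM in controls. MBZ_257 was the lowest and MBZ_259 the highest of the 6. The means were 44.2 ± 12.8 CPM in Zelnorm and 48.6 ± 5.07 CPM in control tumours (log2 fold change -0.13, SE 0.22), and the sign turned to 0.074 without MBZ_257.

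Postn, the matricellular protein periostin, was at 835, 468 and 1312 CPM in Zelnorm tumours, against 997, 1313 and 1190.0 CPM in controls. MBZ_259 lay level with NC4 and MBZ_257 far below the rest. The means were 871 ± 423 CPM in Zelnorm and 1167 ± 159 CPM in control tumours, a log2 fold change of -0.42 (SE 0.35) that went to -0.11 without MBZ_257. Cthrc1, a secreted protein of scar-forming fibroblasts, was at 77.1, 38.3 and 83.7 CPM in Zelnorm tumours, against 70.6, 85.9 and 89.9 CPM in controls (log2 fold change -0.31, SE 0.28, and -0.018 without MBZ_257). The human CTHRC1 count was 134% to 679% of the mouse count, and the part of this in the mouse value was not tested.

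**Figure D3:**
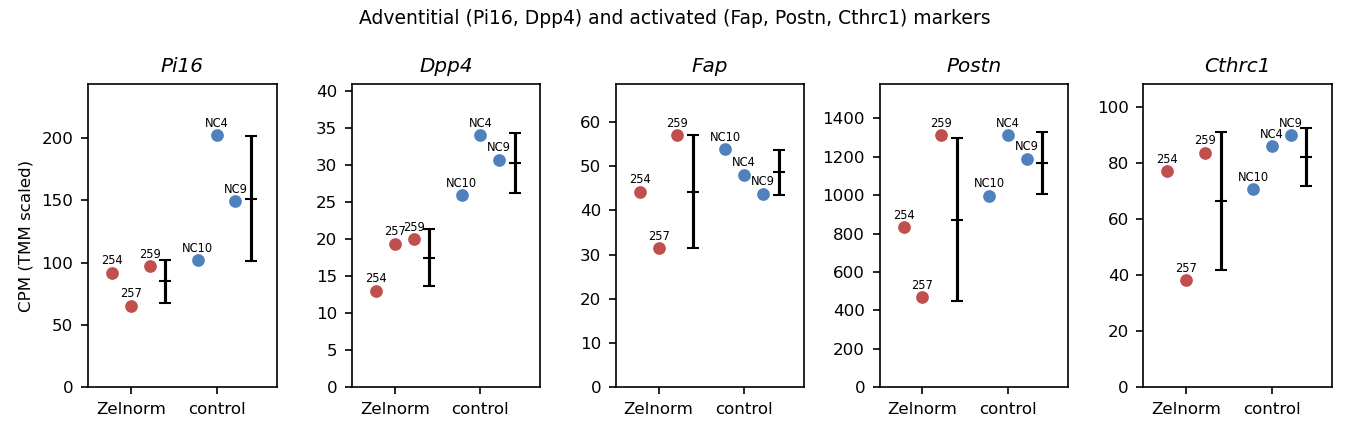
CPM of the adventitial markers Pi16 and Dpp4 and of the activated markers Fap, Postn and Cthrc1 in each library (points), with the group mean and SD (n = 3 each). The 3 Zelnorm points of Pi16 and Dpp4 lie below the 3 control points, and those of the activated markers overlap the controls, with MBZ_257 lowest.

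Set against each other within a library, the adventitial pair and the activated trio do not depend on the scaling between libraries. The mean log2 CPM of Pi16 and Dpp4 minus that of Fap, Postn and Cthrc1 was -2.03 in MBZ_254, -1.21 in MBZ_257 and -2.06 in MBZ_259, against -1.60 in NC10, -1.08 in NC4 and -1.30 in NC9. MBZ_254 and MBZ_259 lay below every control, while MBZ_257 lay among the controls. In MBZ_257 the adventitial mean of 5.16 was close to the 5.12 of MBZ_254, and the activated mean of 6.37 was the lowest of the 6 libraries. The group means were -1.77 ± 0.482 in Zelnorm and -1.33 ± 0.259 in control tumours (SD, n = 3 each), a difference of -0.44 that is smaller than the SD of the Zelnorm group, and no test was run on it. It was -0.72 without MBZ_257 and -0.29 without MBZ_259.

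The single pairs were also compared. Pi16 over Fap averaged 0.96 ± 0.165 in Zelnorm and 1.59 ± 0.595 in control tumours on the log2 scale, a difference of -0.63, and Dpp4 over Fap -1.32 ± 0.556 in Zelnorm and -0.69 ± 0.317 in control tumours, a difference of -0.63. Against Postn the differences were -0.26 for Pi16 and -0.27 for Dpp4, and against Cthrc1 -0.42 and -0.43. Each of the 6 pairs overlapped between the groups.

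**Figure D4:**
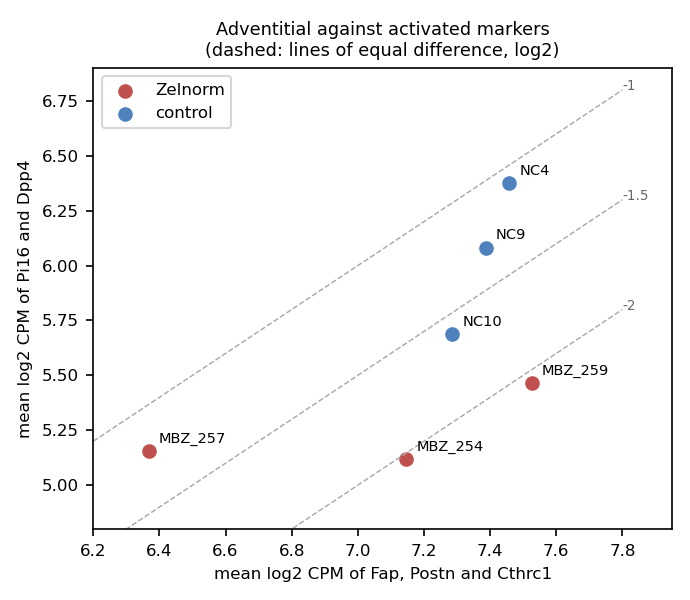
Mean log2 CPM of Pi16 and Dpp4 (vertical) against mean log2 CPM of Fap, Postn and Cthrc1 (horizontal) for the 6 libraries. MBZ_254 and MBZ_259 have lower adventitial levels than every control. Their activated levels lie below (7.15, MBZ_254) and above (7.53, MBZ_259) the control range of 7.28 to 7.46. MBZ_257 has an adventitial level close to that of MBZ_254 with the lowest activated level.

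The other genes grouped here as adventitial markers also had lower group means in Zelnorm, and their groups overlapped. All 6 of this role had a fold change below 0, with a median of -0.73. Mfap5, a microfibril protein that also marks adventitial fibroblasts, was grouped elsewhere and lay above 0 (log2 fold change 0.079, SE 0.25). Clec3b, the plasminogen-binding protein tetranectin, was at 48.3, 13.3 and 37 CPM in Zelnorm tumours, against 41.2, 188 and 46.8 CPM in controls (log2 fold change -1.48, SE 0.66). NC4 stood alone, and without it the value was -0.41.

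Dpt, the matrix protein dermatopontin, was at 116, 29.2 and 132 CPM in Zelnorm tumours, against 76.2, 249 and 112 CPM in controls, and its log2 fold change of -0.66 went to -0.028 without NC4. Ly6a, the surface antigen Sca-1, was at 140.4, 61.2 and 99.5 CPM in Zelnorm tumours, against 97, 246 and 132 CPM in controls (log2 fold change -0.66, SE 0.40). Ly6a belongs to a family of similar genes, and its counts were not whole in 2 libraries. Anxa3, an annexin also made by other cell types, had nearly level means of 58.5 ± 9.34 CPM in Zelnorm and 64.4 ± 7.69 CPM in control tumours, and its human count was 255% to 902% of the mouse count.

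Of 15 tested further genes of adventitial fibroblasts outside the 41, 13 were below 0 and 2 above, with a median log2 fold change of -0.44 and 0 called. Sema3c, a guidance factor, was at 22.6, 19.8 and 35.2 CPM in Zelnorm tumours, against 36.1, 32.4 and 57.1 CPM in controls (log2 fold change -0.69, SE 0.29), and Opcml, a surface adhesion protein, at 3.05, 0.370 and 3.77 CPM in Zelnorm tumours against 6.57, 7.0 and 4.13 CPM in controls (-1.24, SE 0.62). For Sema3c the 6 libraries averaged 3265 human and 266 mouse counts, and the part of this in its mouse value was not tested. Of 22 tested further genes of activated fibroblasts and myofibroblasts, 12 were below 0 and 10 above, with a median of -0.039 and 0 called. Fndc1, which carries fibronectin domains, was at 150.4, 98.8 and 157 CPM in Zelnorm tumours, against 188, 183 and 246 CPM in controls (-0.60, SE 0.22). Tagln, the actin-binding transgelin of contractile cells, was at 285, 228 and 253 CPM in Zelnorm tumours, against 215, 210.4 and 184 CPM in controls (0.33, SE 0.16), and neither gene overlapped between the groups.

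Of the tested identity genes of fibroblasts, Pdgfra, Pdpn, Prrx1 and Twist1 had MBZ_257 as their lowest library, while Thy1 and Twist2 did not. Pdgfra, the platelet-derived growth factor receptor alpha, was at 136, 65.9 and 98.3 CPM in Zelnorm tumours, against 97.7, 188 and 117 CPM in controls (log2 fold change -0.42, SE 0.32). Pdpn, podoplanin, which lymphatic vessels also carry, was at 35.4, 12.8 and 33.9 CPM in Zelnorm tumours, against 31.1, 50.9 and 31 CPM in controls (-0.45, SE 0.38). For both genes NC4 was highest and MBZ_257 lowest, and the groups overlapped.

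Thy1, the surface protein CD90, was at 178, 110.3 and 104 CPM in Zelnorm tumours, against 98.8, 145 and 86.4 CPM in controls, with a log2 fold change of 0.25 (SE 0.28). MBZ_254 was highest and the control NC9 lowest, and MBZ_257 was not low for this gene. Prrx1, a homeobox factor of mesenchyme, was at 205, 76.4 and 97.9 CPM in Zelnorm tumours, against 181, 147 and 123 CPM in controls (-0.24, SE 0.36), again with MBZ_254 highest and MBZ_257 lowest.

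Twist1, a basic helix-loop-helix factor, was at 23, 12 and 13.5 CPM in Zelnorm tumours, against 25.8, 21.8 and 14 CPM in controls (-0.34, SE 0.32). Twist2, its close relative, was at 5.97, 12.6 and 5.6 CPM in Zelnorm tumours, against 9.3, 8.43 and 10.6 CPM in controls, and MBZ_257 was the highest library for it rather than the lowest. The human TWIST2 count was 186% to 271% of the mouse count over the 6 libraries, and the part of this in the mouse value was not tested. Tcf21, another helix-loop-helix factor, had 2 counts in MBZ_254 and 0 in the other 5 libraries, where 3 counts correspond to 0.327 to 0.517 CPM, and was not detectable at this depth.

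Among the small leucine-rich proteoglycans, which bind collagen fibrils, all 4 genes had a fold change below 0. Ogn, osteoglycin (ENSMUSG00000021390, chromosome 13 from 49608046 to 49624501), was at 17.9, 2.41 and 29 CPM in the Zelnorm tumours, against 45.1, 65.2 and 31 CPM in the controls. MBZ_257 was far below the rest, with 13 counts. The highest Zelnorm tumour lay just under the lowest control. The means were 16.4 ± 13.4 CPM in Zelnorm and 47.1 ± 17.2 CPM in control tumours, a log2 fold change of -1.49 (SE 0.66, edgeR adjusted p = 1), and -0.67 without both MBZ_257 and NC4.

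Aspn, asporin, was at 145, 72.2 and 181 CPM in Zelnorm tumours, against 225, 179.5 and 221 CPM in controls (-0.65, SE 0.31). NC4 was the lowest control here, and only MBZ_259 overlapped it. Without MBZ_257 and NC4 the fold change was -0.44. Dcn, decorin, was at 528, 205 and 384 CPM in Zelnorm tumours, against 453, 672 and 424 CPM in controls (-0.47, SE 0.35), a value of 0.077 without both. Lum, lumican, was at 378, 179 and 315 CPM in Zelnorm tumours, against 327, 325 and 319 CPM in controls, so the controls were nearly equal, with MBZ_254 above and the other Zelnorm tumours below them.

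Genes of elastic fibres and microfibrils divided by library. Eln, the elastic protein of these fibres, was at 202, 85.1 and 352 CPM in Zelnorm tumours, against 297, 808 and 307 CPM in controls (log2 fold change -1.14, SE 0.56). Tnxb, tenascin-X, a large glycoprotein of loose connective tissue, was at 87.5, 25.5 and 117 CPM in Zelnorm tumours, against 96.8, 407 and 113 CPM in controls (-1.42, SE 0.67). NC4 stood far above all other tumours for both. Without NC4 the values were -0.50 for Eln and -0.45 for Tnxb, and without both NC4 and MBZ_257 they were -0.11 and -0.024.

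The control NC4 also had the most fat cell RNA. The summed level of 11 tested adipocyte markers, of 12 listed, was 356, 211 and 296 CPM in the Zelnorm tumours, against 392, 1140 and 725 CPM in the controls. Lep, the leptin gene of fat cells, was not tested, with 3, 0 and 0 counts in Zelnorm libraries, against 3, 30 and 8 in controls. All 11 were below 0, with a median log2 fold change of -1.71 and 0 called. The Zelnorm sums lay below the lowest control, as Pi16 and Dpp4 did, with MBZ_254 and NC10 close to each other. The part of adipose tissue in these values was not tested.

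Skeletal muscle RNA ran otherwise. The sum of 12 muscle markers was 72.0, 143 and 7475 CPM in the Zelnorm tumours, against 442, 3122 and 2324 CPM in the controls, lowest in MBZ_254 and MBZ_257. Endothelial markers, 9 tested of 10, summed to 1137, 662 and 985 CPM in Zelnorm tumours, against 853, 1305 and 933 CPM in controls, with MBZ_257 lowest and NC4 highest as for the fibroblast genes. Pericyte and smooth muscle markers (10 of 10) summed to 1555, 989 and 1731 CPM in Zelnorm tumours, against 1467, 1428 and 1331 CPM in controls. This sum includes Des, which was highest in MBZ_259 like the skeletal muscle sum. Des was at 26.3, 21.5 and 555 CPM in Zelnorm tumours, against 50.5, 248 and 259 CPM in controls. Macrophage markers (10 of 10) summed to 4735, 5044 and 4959 CPM in Zelnorm tumours, against 4716, 4241 and 3598 CPM in controls, highest in MBZ_257. Keratinocyte markers (2 of 8 tested) summed to 15.9, 33.5 and 24.2 CPM in Zelnorm tumours, against 15.4, 22 and 20.8 CPM in controls, and Schwann cell markers (4 of 6 tested) to 25.2, 2.96 and 21.1 CPM in Zelnorm tumours, against 20.7, 25.7 and 4.78 CPM in controls. The part of these cell types in the results was not tested.

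The microfibril genes were steadier than Eln and Tnxb. Fbn1, fibrillin-1, the backbone of microfibrils, was at 1285, 791 and 1267 CPM in Zelnorm tumours, against 1132, 1599.7 and 1142 CPM in controls (-0.21, SE 0.25). Mfap4, a microfibril-associated protein, was at 139, 82.5 and 161 CPM in Zelnorm tumours, against 152, 237 and 154 CPM in controls (-0.50, SE 0.29). It overlaps Mapk7 on the opposite strand, and whether counting used strand is not given.

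Mfap5, a second microfibril protein that also marks adventitial fibroblasts, was at 195, 121 and 247 CPM in Zelnorm tumours, against 190.2, 174 and 169 CPM in controls (0.079, SE 0.25). Both MBZ_254 and MBZ_259 lay above all controls, unlike their Pi16. Fbln1 and Fbln2, fibulins that bind elastin and basement membranes, had log2 fold changes of -0.29 (SE 0.34) and -0.018 (SE 0.28), with MBZ_254 highest for both.

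Of the cross-linking enzymes, Lox was at 549, 213 and 393 CPM in Zelnorm tumours, against 391, 359 and 390.1 CPM in controls, a log2 fold change of 0.018 (SE 0.31). The controls lay within a narrow band and the Zelnorm tumours on both sides of it. Loxl1, its relative, was at 218, 118 and 278 CPM in Zelnorm tumours, against 232, 289 and 224 CPM in controls (-0.28, SE 0.30).

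The highest levels of the set per exon length were those of adhesive and matricellular glycoproteins. Sparc, a collagen-binding protein, stood at 1271 CPM per kilobase of exon over the 6 libraries, Fn1, fibronectin, at 338, and Thbs2, thrombospondin-2, at 165. On the same scale Postn was at 117, Pi16 at 18.6, Fap at 8.2, Dpp4 at 3.78, Twist2 at 2.76 and Has1 at 0.738.

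All 6 glycoprotein genes had a fold change below 0, with a median of -0.22, and each overlapped between the groups. Fn1 was at 3622, 1828 and 4764 CPM in Zelnorm tumours, against 3744, 5017 and 4705 CPM in controls (-0.40, SE 0.34), and Thbs2 at 1334, 709.9 and 1167 CPM in Zelnorm tumours, against 1215, 1317 and 1199 CPM in controls (-0.22, SE 0.25). MBZ_257 was the lowest library for both, and without MBZ_257 and NC4 the values were 0.0064 and 0.070. Sparc was at 5365, 2861 and 5061 CPM in Zelnorm tumours, against 4629, 6631 and 4344 CPM in controls (-0.23, SE 0.30).

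Cilp, a cartilage intermediate layer protein, varied most among these within Zelnorm, at 86, 63.1 and 262 CPM in Zelnorm tumours, against 110.2, 308 and 176 CPM in controls. MBZ_259 and NC4 were high. The log2 fold change of -0.53 (SE 0.56) ran from -1.41 without MBZ_259 to -0.061 without NC4. Tnc, tenascin-C, and Comp, cartilage oligomeric matrix protein, had log2 fold changes of -0.0063 (SE 0.37) and -0.11 (SE 0.41).

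Sfrp1, a secreted inhibitor of Wnt signalling (ENSMUSG00000031548, chromosome 8 from 23411502 to 23449632), was at 124, 88.8 and 134 CPM in the Zelnorm tumours, against 144, 193 and 146 CPM in the controls. The groups did not overlap, but the step between MBZ_259 and NC10 was narrow. The means were 116 ± 23.7 CPM in Zelnorm and 161 ± 27.7 CPM in control tumours, a log2 fold change of -0.48 (SE 0.21, edgeR adjusted p = 1), which was -0.15 without both MBZ_257 and NC4. The human table held 993, 910 and 1323 SFRP1 counts in the Zelnorm libraries, against 864, 1079 and 1537 in controls. The mouse table held 978, 480 and 1171 Sfrp1 counts in the Zelnorm libraries, against 897, 1488 and 1345 in controls, and the part of the human signal in the mouse value was not tested.

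Its relative Sfrp2 was at 335, 86 and 172 CPM in Zelnorm tumours, against 256, 353 and 224 CPM in controls (-0.49, SE 0.44), and Sfrp4 at 20.7, 12 and 32.8 CPM in Zelnorm tumours, against 16, 58.5 and 22.1 CPM in controls (-0.55, SE 0.52). Without NC4 the value of Sfrp4 turned to 0.20. Igf1, insulin-like growth factor 1, which macrophages also make, was at 93.2, 48.7 and 85.9 CPM in Zelnorm tumours, against 85.1, 107 and 104 CPM in controls (-0.38, SE 0.25).

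Of 15 tested further genes of Wnt modulation and the insulin-like growth factor axis, 11 were below 0 and 4 above (median log2 fold change -0.30, 0 called). Igfbp5, which binds these growth factors, was at 83.1, 148 and 168 CPM in Zelnorm tumours, against 145, 252 and 227 CPM in controls (-0.64, SE 0.31), and Wif1, a Wnt inhibitor, at 2.29, 0.740 and 2.74 CPM in Zelnorm tumours, against 8.34, 2.33 and 2.93 CPM in controls (-1.17, SE 0.63). Both had more human than mouse counts over the 6 libraries, with means of 5639 and 1310.2 for Igfbp5 and 276 and 23.8 for Wif1, and the part of this in the mouse values was not tested. Of 37 tested further matrix glycoproteins and proteoglycans, 30 were below 0 and 7 above (median -0.28, 0 called). Among them Ltbp1, which holds latent TGF-beta in the matrix, was at 49.9, 34 and 50.1 CPM in Zelnorm tumours, against 56.8, 82.2 and 65.2 CPM in controls, without overlap (-0.60, SE 0.21). Efemp1, a fibulin, had a log2 fold change of -0.91 (SE 0.39). Human counts averaged 6.69 times the mouse counts for Ltbp1 and 2.56 times for Efemp1, and the part of this was not tested.

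Gsn, gelsolin, which severs actin filaments, was at 379, 247 and 342 CPM in Zelnorm tumours, against 389, 766 and 343 CPM in controls (-0.63, SE 0.33), with NC4 far above the other controls and a value of -0.18 without it. Has1, a hyaluronan synthase, was near the lower end of detection at 11, 2 and 80 counts in Zelnorm libraries, against 11, 18 and 46 in controls. Its log2 fold change of 0.29 (SE 0.92) rested on MBZ_259 and was -1.71 without that library.

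**Figure D5:**
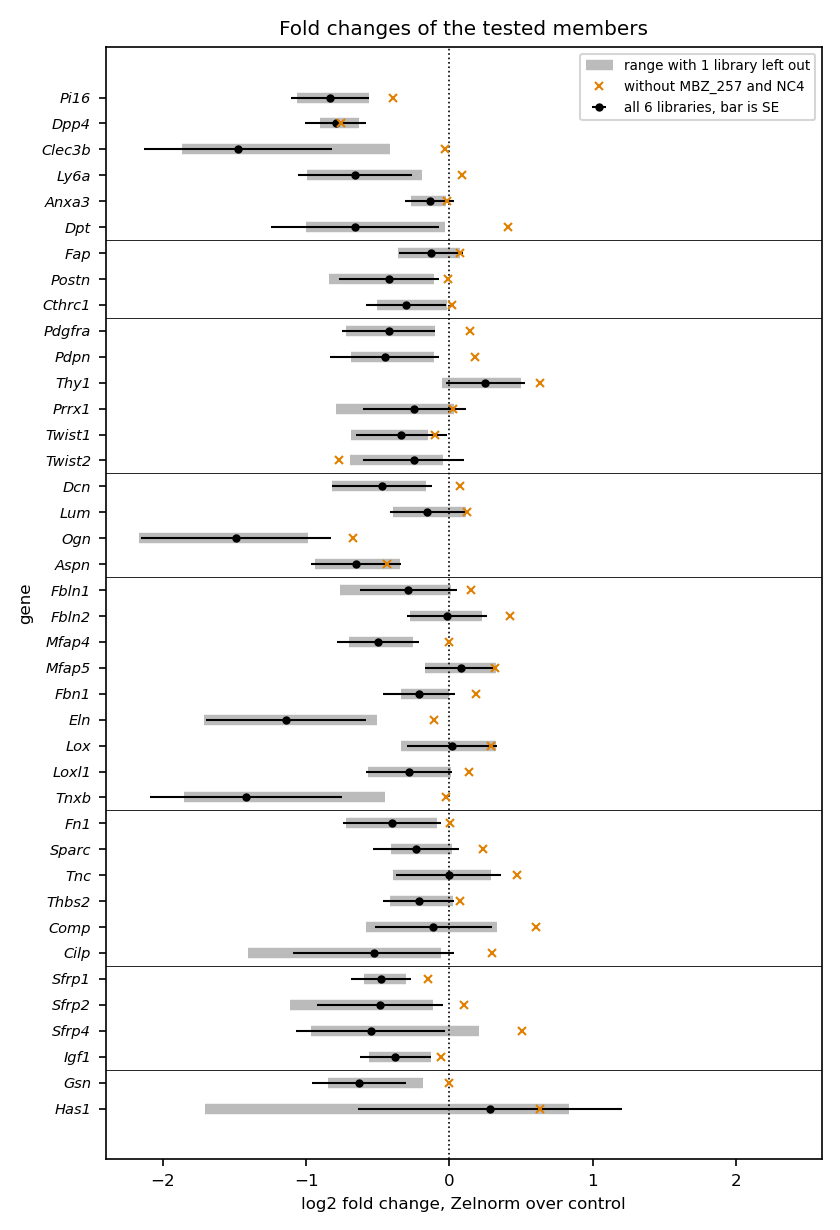
Log2 fold change of Zelnorm over control for the 40 tested genes from edgeR with all 6 libraries (black points, bars are SE), its range when 1 library is left out (grey), and its value without both MBZ_257 and NC4 (orange crosses). Points lie below 0 for 36 genes, and the crosses lie above 0 for 25. Leaving out MBZ_257, lowest for most genes, and NC4, highest for most, raises most fold changes by construction.

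The makeup of the set within each library was compared after setting every library to the median log2 CPM of the 40 genes, a scaling chosen after seeing the data. This scaling takes out a shift shared by the 40 genes, so counts on it cannot show whether there was one. That median was 7.13, 6.13 and 6.95 in the Zelnorm libraries, against 6.93, 7.63 and 7.12 in the controls. On this scale 0 of the 40 genes had every Zelnorm library below every control (0.367% of all tested genes) and 3 had every one above: Thy1, Fbln2 and Sparc (9.93% of all tested genes). Pi16 was at -0.60, -0.096 and -0.35 in the Zelnorm libraries, against -0.26, 0.035 and 0.10 in the controls, so only MBZ_257 lay among the controls. Dpp4 was at -3.42, -1.85 and -2.63 in the Zelnorm libraries, against -2.23, -2.535 and -2.18 in the controls, so MBZ_257 lay above every control. Thy1 was at 0.35, 0.66 and -0.25 in the Zelnorm libraries, against -0.31, -0.44 and -0.69 in the controls. Sfrp1 averaged 0.094 ± 0.258 in Zelnorm and 0.091 ± 0.137 in control tumours on this scale, a difference of 0.0026.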

How the data were processed

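The submitters' processing notes name the builds GRCh38 and GRCm38 and the tools edgeR, DESeq2, StringTie and HISAT2, with no role or version. The authors deposited estimated counts per gene in one human and one mouse table, which need not be whole (27% of mouse values above 0 were not whole, with a tolerance of 1e-09). How reads were divided between species was not given in the sources used here. Columns carry the group prefix of the titles and a number found in no label, so libraries have a group but no replicate number. The tests planned for counts were run on estimated counts rounded to whole numbers. Rows without a gene name (856 of 56392 mouse rows, 0.317% to 0.468% of counts) stayed out. Mouse library totals were 5798742 to 9185279, and intervals and floors cover counting error only.

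edgeR 4.0.16 in R 4.3.3 was fitted to the whole mouse table (filterByExpr, TMM, glmQLFit and glmQLFTest, two-sided), with Benjamini-Hochberg adjustment over all tested genes and a threshold of 0.05. SEs derive from the F statistic. The human table was fitted separately in the same way. Alternatives were DESeq2 1.42.0, limma 3.58.1 (voom, with and without sample quality weights), other scalings, no filter and leaving out libraries. The fits were tested on simulated data. Exon lengths and gene positions come from GENCODE vM21 (GRCm38) and promoters from RefSeq (GRCm38.p6). Members and gene lists were chosen with earlier results of these data known. Named in full are the 5 subset markers and up to 3 genes per role, and up to 2 genes per further list, with the smallest p. The other genes of the set were named to account for all 41. Of the cell type lists only sums are given, beside Col1a1, S100a4, Des and Lep, named after their values were seen.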

Additional observations from a re-analysis of the deposited data

How the results depend on the processing

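No paired analysis was possible because the library columns carry numbers that no label gives, so no replicate numbers are shared between the groups. Under edgeR with other scalings or without the count filter, DESeq2, limma-voom, each library left out and the alternatives added after seeing the data (quality weights, and leaving out both MBZ_257 and NC4), 0 of the 40 genes were called, with a smallest adjusted p of 0.63. Over all tested genes DESeq2 called 6, edgeR without the count filter 2, weighted limma-voom 1 and the other settings 0. Members at an unadjusted p under 0.05 numbered 2 in edgeR with all libraries and 10 of 41 without the count filter (598 of 25331 genes). With 1 library left out they numbered 1 to 9: 9 without MBZ_254 (866 of 14784 genes), 9 without MBZ_259 (430 of 14757) and 1 without NC4 (177 of 14758). None of the 40 genes had a human count over 10 times its mouse count, so leaving such members out changed nothing. Of the further genes named, Sema3c and Wif1 did. Of 560 values of single genes under these alternatives, 506 kept the sign of the fold change and 54 did not.

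The median log2 fold change of -0.39 ran from -0.54 to -0.11 with 1 library left out, and was 0.07 without both MBZ_257 and NC4. Leaving out both raises it by construction. Of the 40 genes, 4 lay above 0 with all libraries, 2 under limma-voom, 12 with quality weights, 2 to 14 with 1 library left out and 25 without both. The adventitial minus activated difference ran from -0.72 to -0.29 with 1 library left out. Under limma-voom Has1 was -0.44 and Lox -0.10. With quality weights Anxa3 was 0.011, Cilp was 0.27, Comp was 0.53, Dpt was 0.0023, Fap was 0.086, Fbln2 was 0.10, Lox was -0.030, Loxl1 was 0.018, Sfrp4 was 0.31 and Tnc was 0.45. Without both MBZ_257 and NC4 Cilp was 0.30, Comp was 0.61, Cthrc1 was 0.019, Dcn was 0.077, Dpt was 0.41, Fap was 0.072, Fbln1 was 0.15, Fbln2 was 0.42, Fbn1 was 0.18, Fn1 was 0.0064, Loxl1 was 0.14, Lum was 0.12, Ly6a was 0.085, Pdgfra was 0.14, Pdpn was 0.18, Prrx1 was 0.022, Sfrp2 was 0.10, Sfrp4 was 0.50, Sparc was 0.23, Thbs2 was 0.070 and Tnc was 0.47. With 1 library left out, the sign changed within -0.33 to 0.32 for Lox, -0.051 to 0.50 for Thy1, -0.40 to 0.29 for Tnc, -0.58 to 0.33 for Comp, -0.36 to 0.074 for Fap, -0.77 to 0.0075 for Fbln1, -0.28 to 0.22 for Fbln2, -0.57 to 0.0087 for Loxl1, -0.40 to 0.11 for Lum, -0.79 to 0.031 for Prrx1, -0.40 to 0.017 for Sparc, -0.42 to 0.023 for Thbs2, -1.71 to 0.83 for Has1, -0.17 to 0.33 for Mfap5 and -0.97 to 0.20 for Sfrp4. The cause was not tested. With 3 libraries a group, differences of the sizes fitted here could go undetected for most of these genes. Has1, Opcml and Ogn in MBZ_257 rest on few counts.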

Other observations

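Human genes of the same symbol were counted in the same libraries. Of the 41 genes, 40 had a human gene of the same symbol and 29 had counts in every library of both tables. For 10 of these 29 the human count was a nearly fixed share of the mouse count, with less than 1.5 times between the highest and lowest library. SPARC had 10.8% to 11.7% as many human as mouse counts, CILP 7.66% to 9.09%, POSTN 0.940% to 1.19%, SFRP2 23.0% to 29.2%, ASPN 14.6% to 18.5%, OGN 7.09% to 9.47% and FAP 22.6% to 29.4%. TWIST2 was also among the 10, at 186% to 271%, so there the human counts were the larger. For TNXB the same share ran from 33.6% in NC4 to 879% in MBZ_257, for CTHRC1 from 134% to 679% and for DPP4 from 117% to 407%. Human OGN was at 0.353 ± 0.279 CPM in Zelnorm and 0.981 ± 0.457 CPM in control tumours, a log2 fold change of -1.47 (SE 0.67), close in size to that of mouse Ogn at -1.49. It rested on 13, 1 and 18 human counts in Zelnorm libraries, against 20, 39 and 27 in controls. With a nearly fixed share of the mouse counts, a close fold change follows by arithmetic, so human OGN was not counted as separate support. Of 27 human genes of the set that were tested among 18820 human genes, edgeR called 0. These ratios were computed after the data were seen, and what sets them was not tested.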
